A study of Mus musculus with 2 samples.

Results

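Calb2 neuroblasts are young neurons of the dentate gyrus that carry transcripts of Calb2, the gene of the calcium-binding protein calretinin (ENSMUSG00000003657, on the minus strand at chr8:110137502-110168210 of GRCm38). They were chosen from the cells by fixed limits on raw counts of unique molecular identifiers (UMIs). A barcode was kept as a cell if it had 1000 UMIs or more over 500 genes or more, and no more than 20% of its UMIs were mitochondrial. A kept cell entered the neurogenic gate with at least 6 UMIs over Sox11, Neurod1, Igfbpl1, Eomes, Dcx and Mfap4. It could hold at most 2 UMIs over the oligodendrocyte precursor genes Pdgfra, Gpr17 and Lhfpl3, and the same limit applied to the microglial genes P2ry12 and Cx3cr1, to the endothelial genes Cldn5 and Flt1, and to Reln of Cajal-Retzius cells. Members held under 10 UMIs over the mitotic genes Mki67, Top2a, Ube2c, Cenpf, Birc5 and Cdk1, under 5 over the S-phase genes Ung, Cdc6, Uhrf1, Mcm5 and Mcm6, at most 2 over Eomes, Tac2 and Mfap4, and at least 2 of Calb2. There were 726 members among 16636 kept cells and 2646 cells of the neurogenic gate.

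The cells came from dissected dentate gyri at postnatal day 30 and were profiled with droplet 3′ single-cell RNA sequencing. The study compared control mice (Nestin-Cre transgene, Phf2+/+) with conditional knockouts (Nestin-Cre transgene, Phf2flox/flox), 4 mice in each group, and both groups carry the same Cre transgene of the strain B6.Cg-Tg(Nes-cre)1Kln/J. Nestin is a gene of neural stem and progenitor cells, and Phf2 codes for a histone demethylase of the KDM7 family. The deposited matrix holds 2 libraries, marked by barcode suffixes 1 and 2, and no label ties a suffix to a genotype. Each value is therefore given by library, and no comparison of genotypes was made.

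Granule neurons of the dentate gyrus continue to be made after birth. Radial glia-like stem cells give rise to Eomes-positive (Tbr2) intermediate progenitors, which divide and yield neuroblasts that extend neurites and settle in the granule cell layer. Calretinin marks immature granule neurons just after the last division and is replaced by calbindin, the product of Calb1, as they mature. Outside this lineage, Calb2 is also a gene of Cajal-Retzius cells, of some GABAergic interneurons and, in mice, of mossy cells.

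Library 1 held 320 members and library 2 held 406. Their sums were 2871869 and 3114272 UMIs, with a median of 9098.5 and 7572 UMIs, 3280.5 and 2871.5 genes, and 4.39% and 5.52% mitochondrial UMIs per cell. Members made up 24.7% of gated cells in library 1 (95% exact binomial interval 22.4 to 27.1) and 30.1% in library 2 (27.6 to 32.6). Both shares depended on depth, since they were 17.5% and 22.2% after each cell was thinned to 3000 UMIs. These intervals, like all others here, cover counting error only and say nothing of the spread between mice. The libraries shared 23 barcodes among kept cells and 0 among members. Phf2 itself had 42 UMIs in the members of library 1 (14.6 CPM, counts per 1000000 UMIs) and 16 in those of library 2 (5.14 CPM). Which part of Phf2 the floxed allele loses is not stated in the labels, so a 3′ count of Phf2 does not check them.

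Calb2, which the rule used, is described without a test. Members had between 2 and 50 Calb2 UMIs in library 1, with a median of 7, and between 2 and 46 in library 2, with a median of 8. Just inside the threshold, 36 and 51 cells had 2 UMIs, and 31 and 33 cells had 3. Just outside it, 44 and 43 neuroblasts had 1 UMI, while 116 and 174 had 0. After thinning to 3000 UMIs, 70.8% of the members deep enough in library 1 and 77.9% in library 2 still had at least 2 Calb2 UMIs. The summed level was 1070 and 1280 CPM in members, 474 and 533 CPM in the Eomes progenitors described below, and 85.6 and 81.2 CPM in the free RNA of near-empty droplets.

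**Figure D1:**
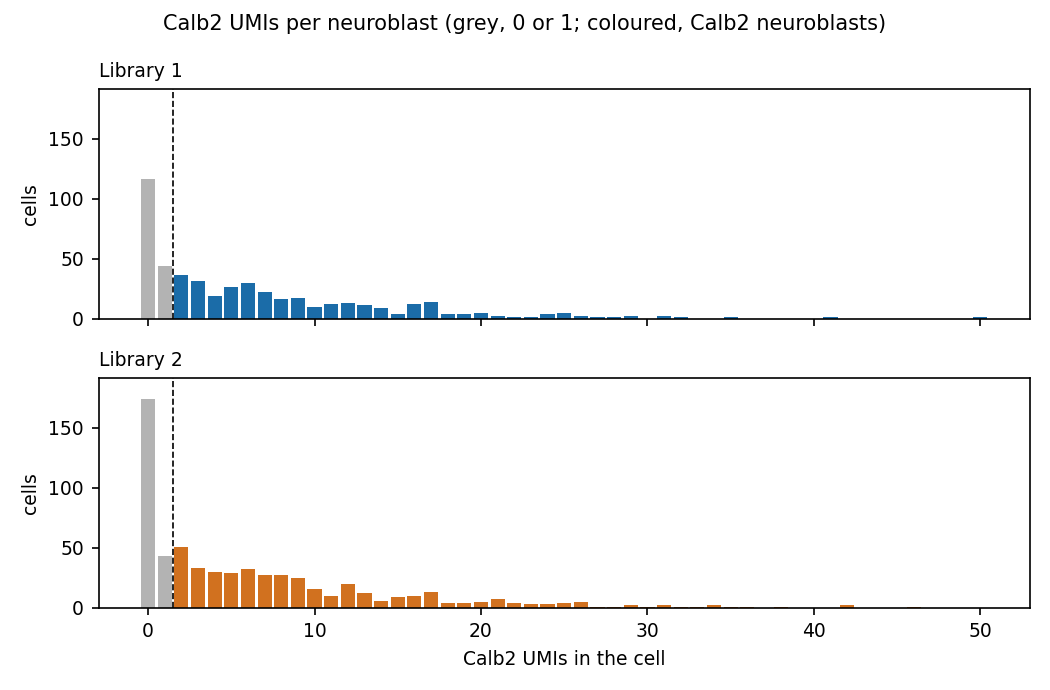
Number of neuroblasts (vertical axis, cells) by Calb2 UMIs in the cell (horizontal axis), library 1 above and library 2 below. Grey bars to the left of the dashed line are the 160 and 217 low-Calb2 neuroblasts with 0 or 1 UMI, coloured bars the 320 and 406 Calb2 neuroblasts, with a tail that reaches 50 UMIs.

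The label was checked with markers that the rule did not use. Stmn2, which codes for a microtubule regulator of growing neurites, had a UMI in 97.2% and 94.8% of members, against 15.6% and 16.0% of endothelial-marked cells. These are cells outside the gate with at least 6 UMIs of Cldn5 and Flt1, at a median of 9588.5 and 8370 UMIs, and their share is taken as the background of free RNA. Tubb3, a neuronal beta-tubulin, was found in 97.5% and 93.8% of members and in 3.71% and 4.78% of endothelial-marked cells. Prox1, the factor that sets granule neuron identity, was found in 95.6% and 93.8% of members, against 4.81% and 6.87% of endothelial-marked cells. In the Eomes progenitors described below, at medians of 11242 and 9621 UMIs, Tubb3 was found in 96.2% and 96.15% of cells. Prox1 was found there in 94.2% and 92.3%, and Stmn2 in 79.9% and 77.1%. The check thus sets members apart from endothelial-marked cells, while the shares with Tubb3 or Prox1 do not set them apart from those progenitors.

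Of the markers of other Calb2 cell types, those of GABAergic neurons were near 0, while single genes of the other lists were not. The 12 genes of GABAergic neurons and subventricular neuroblasts summed to 7.31 and 11.6 CPM in members, with 5 of 12 at 0 UMIs in each library. Slc32a1, Dlx5, Dlx6os1 and Lhx6 were at 0 in both libraries, where the limit from 3 counts is 1.04 and 0.963 CPM. Of the 8 Cajal-Retzius genes, which summed to 232 and 210 CPM, Lhx1 and Lhx5 were at 0 in both libraries. Most of that sum was Nhlh2, which members held at 184 and 162 CPM, and Zic1, held at 46.0 and 45.3 CPM. Nhlh2 had a UMI in 66.9% and 60.3% of members, against 1.00% and 1.59% of endothelial-marked cells. The 8 genes of mossy cells and pyramidal neurons summed to 43.9 and 54.0 CPM, of which Slc17a6 gave 38.3 and 49.8, with a UMI in 24.4% and 26.6% of members and in 0.601% and 0.697% of endothelial-marked cells. Calb1, the calbindin gene of mature granule neurons, had 0 UMIs in library 1 and 18 (5.78 CPM) in library 2, all of them in 2 of the 406 members.

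RNA of glia and blood was present in the sums of both libraries. Astrocyte genes summed to 1177 and 2052 CPM and oligodendrocyte genes to 873 and 1473, higher in library 2. The other lists were closer between the libraries, with choroid plexus and red cell genes at 1858 and 1724 CPM, microglial genes at 164 and 162, and endothelial genes at 331 and 321. Scrublet, which scores cells by likeness to simulated doublets, marked 3 and 10 members.

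Members were then compared with Eomes progenitors, the step before them in the lineage. These are gated cells with the same limits on cycling genes and over 2 UMIs of Eomes, Tac2 and Mfap4, 553 cells (6287503 UMIs) in library 1 and 468 (4634901 UMIs) in library 2. In members, 10 of 14 tested genes of glutamate and GABA receptors, 10 of 15 of ion channels, 13 of 21 of adhesion and 13 of 24 of the cytoskeleton were higher, and 16 of 22 of stem cells and early progenitors were lower. Counts were summed per class and library and tested with edgeR's quasi-likelihood test with the library as a block. Of 11639 genes tested, 1419 (12.2%) were higher and 1340 (11.5%) lower at a Benjamini-Hochberg adjusted p of 0.05. DESeq2 called 237 (2.21%) and 176 (1.64%) of 10738 genes on the same sums, and all of these lay within the edgeR calls. The test has 1 residual degree of freedom, takes most of its spread from other genes and measures the spread between 2 libraries, not between mice. The 27 genes of the rule are not counted as results.

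Gal, the gene of the neuropeptide galanin, had the largest difference among the higher genes with 20 CPM or more in members of both libraries. Its level was 30.6 and 62.6 CPM in members and 6.36 and 15.5 CPM in progenitors. The log2 difference was 2.12 ± 0.18 (SE). This SE and those below were derived from the F statistic of the test, which borrows spread from other genes. For a single gene the SE can be smaller than the gap between its 2 libraries. Galanin RNA was not common outside the cells, where free RNA held 2.78 and 4.74 CPM. Col12a1, which codes for a fibril-associated collagen, stood at 56.4 and 64.5 CPM against 12.4 and 25.5. Its difference was 1.73 ± 0.14. Kitl, the ligand of the receptor Kit, was at 105 and 116 CPM against 35.5 and 36.7, a difference of 1.63 ± 0.10.

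Ntrk3 (TrkC, the receptor of neurotrophin 3) was held at 87.4 and 91.5 CPM in members and at 19.6 and 28.5 CPM in progenitors, 1.93 ± 0.11 apart on the log2 scale. Camk2b, a subunit of the calcium/calmodulin kinase that binds actin in dendrites, was at 136 and 137 CPM against 33.2 and 41.4, 1.90 ± 0.10 apart. Dab1, the adaptor that carries the reelin signal in migrating neurons, was at 83.6 and 97.3 CPM against 21.5 and 32.2, a difference of 1.79 ± 0.11. These genes, like Gal, Col12a1 and Kitl, were picked by size of difference with the same sign in both libraries. A gap between the classes in such genes follows largely from that choice. The other leading genes were Sema5a, Nexmif, Lrrc7, Elmod1 and Syt16, with log2 differences from 1.54 to 1.69.

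The granule lineage factors were split, 7 higher and 9 lower of 22 tested, with a median log2 difference of -0.05 beside 0.00 over all genes. Prox1 was at 1082 and 1034 CPM in members and 640 and 662 in progenitors, a difference of 0.72 ± 0.04. Neurod2, a bHLH factor of neuronal maturation, was at 270 and 257 CPM against 126 and 106, a difference of 1.20 ± 0.06. Bhlhe22 was higher by 0.78 ± 0.05, and Bcl11b, Satb1, Klf7 and Neurod6 were also higher. In the other direction, Neurod4, a bHLH factor of early differentiation, was at 3.83 and 6.10 CPM against 44.4 and 37.1, a difference of -3.00 ± 0.22. Lhx2, a cortical progenitor factor, was lower by 0.88 on the log2 scale (448 and 394 against 791 and 771 CPM), and Sox4 by 0.34 on the log2 scale (2645 and 2494 against 3276 and 3301 CPM). Emx1, Emx2, Nfix, Fezf2 and Tbr1 were lower as well.

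The stretch upstream of the start site is shown for 2 of the factors that were higher, Prox1 and Neurod2, because both hold the E-box CAGATG, a form bound by the NeuroD family, and for Gal, the leading gene, which holds none. The 3 genes were picked after their values were seen. Of the 25 genes looked up that had an entry, only Prox1 and Neurod2 hold the motif on either strand. The letters are the 250 bases before the RefSeq start (GRCm38.p6), 5′ to 3′ on the strand of the gene, with the motif in capitals.
Prox1, chr1:190170828-190171077, minus strand: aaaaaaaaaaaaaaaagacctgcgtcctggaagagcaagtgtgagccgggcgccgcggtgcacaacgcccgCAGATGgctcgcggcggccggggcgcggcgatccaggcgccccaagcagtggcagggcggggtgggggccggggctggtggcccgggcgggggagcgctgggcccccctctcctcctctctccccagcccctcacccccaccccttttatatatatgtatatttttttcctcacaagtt
Neurod2, chr11:98329646-98329895, minus strand: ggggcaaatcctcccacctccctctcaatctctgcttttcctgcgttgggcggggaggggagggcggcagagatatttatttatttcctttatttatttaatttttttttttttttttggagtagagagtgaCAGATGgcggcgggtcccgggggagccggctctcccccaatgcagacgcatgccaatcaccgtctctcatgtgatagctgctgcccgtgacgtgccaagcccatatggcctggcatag
Gal, chr19:3414545-3414794, minus strand: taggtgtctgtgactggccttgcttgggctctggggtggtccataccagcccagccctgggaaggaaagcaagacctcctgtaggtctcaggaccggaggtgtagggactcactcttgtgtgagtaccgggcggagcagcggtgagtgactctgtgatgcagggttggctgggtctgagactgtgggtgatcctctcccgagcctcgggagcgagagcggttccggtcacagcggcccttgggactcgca
CAGATG, searched on both strands (CATCTG on the other), was present in 144 of 1044 genes with a promoter entry that were higher in members (13.8%), in 129 of 1057 that were lower (12.2%), in 1023 of all 9061 tested genes with an entry (11.3%) and in 4409 of all 27025 genes with one (16.3%). A second RefSeq start of Prox1 has no match in its 250 bases. A match is a description of the letters and not a measured binding site.

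Genes of stem cells and early progenitors were lower in 16 of 22 tested and higher in 2, with a median log2 difference of -0.82. Hes5, a Notch effector of stem cells, was at 6.62 and 5.46 CPM in members and 30.5 and 92.1 in progenitors, and its difference was -3.32 ± 0.19. The fall was larger in library 2, which this SE does not show. Vim, the intermediate filament of radial glia, was at 18.8 and 15.4 CPM against 94.6 and 110, a difference of -2.56 ± 0.13. Sox2 was lower by 1.61 on the log2 scale, with 48.4 and 40.1 CPM against 131 and 141. Fabp7, a fatty acid binding protein of radial glia, was lower by 1.54 on the log2 scale, with 49.1 and 45.3 CPM against 124 and 155. Btg2 and Gadd45g, 2 genes of the exit from division, were the members of the list that were higher. The single largest fall among genes at 20 CPM or more was that of Mpped1, a gene of pyramidal neurons and developing cortex, with 3.83 and 1.93 CPM in members and 25.1 and 38.2 in progenitors (-3.44 ± 0.27).

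Of 17 genes of G1 cyclins, CDK inhibitors and related proteins, 4 were higher and 5 lower, with a median of 0.06. Ccnd2, the G1 cyclin of dividing granule cell progenitors, was at 146 and 146 CPM in members and at 528 and 597 in progenitors, a difference of -1.93 ± 0.05. Ccnd1, Cdk6, Cdk4 and the inhibitor Cdkn2c were also lower. Btg1, Cdk5r1 (p35, the activator of the neuronal kinase Cdk5), Mycn and Cdkn1c were higher. The rule limits the mitotic and S-phase genes in both classes but none of these.

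The cytoskeleton list had 13 genes higher and 5 lower of 24 tested, with a median of 0.16. Stmn2 was at 1275 and 1271 CPM against 772 and 737, a difference of 0.77 ± 0.04, and its relative Stmn4 at 521 and 486 against 280 and 261, a difference of 0.91 ± 0.05. Mapt (tau) was higher by 0.75 ± 0.05, and the axonal intermediate filament gene Ina by 1.01 ± 0.10. Dclk1, Stmn1, Tubb3, Tubb5 and Map2 were lower, all by less than 0.5 on the log2 scale. Of the other members of this list tested, 6 did not pass.

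In axon guidance, 9 genes were higher and 5 lower of 21, with a median of -0.15. Sema5a, a transmembrane semaphorin, was at 208 and 239 CPM in members and 59.8 and 81.3 in progenitors, a difference of 1.69 ± 0.07. The semaphorin receptor genes Plxna2, Plxna4, Nrp1 and Nrp2 were higher, as were the ligands Sema3c, Sema3e and Sema6d. Plxna4 stood at 222 and 199 CPM against 121 and 125 (0.79 ± 0.06). Robo2, a receptor of Slit proteins, was the largest fall of the list, with 4.53 and 4.82 CPM in members against 36.7 and 42.3, a difference of -3.06 ± 0.23. Unc5d and Dcc, 2 netrin receptors, were lower too.

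Adhesion proteins were higher in 13 of 21 and lower in 2, with a median of 0.43. Chl1, an L1-family protein, was at 512 and 453 CPM against 214 and 218, a difference of 1.18 ± 0.05. Cadm2 was at 83.6 and 95.4 CPM against 32.9 and 38.6, a difference of 1.34 ± 0.11. Ncam1 and L1cam were higher, and so was St8sia2, the enzyme that adds polysialic acid to Ncam1 on migrating neuroblasts. Nlgn1 and Tenm4 were lower.

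Receptor subunits were higher in 10 of 14 tested and lower in 0, with a median of 0.68. Another 8 of the 22 listed were too low to be tested. Grin2b, the NMDA receptor subunit of young neurons, was at 205 and 232 CPM against 85.3 and 95.8, a difference of 1.29 ± 0.07. Gria2, the AMPA receptor subunit that limits calcium entry, was at 1369 and 1345 CPM against 944 and 944, a difference of 0.54 ± 0.04. The GABA-A receptor subunit genes Gabra2, Gabra4 and Gabra5 were higher. Gabra2 stood at 101 and 107.6 CPM against 62.4 and 59.98 (0.78 ± 0.09).

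Chloride transporters and ion channels were higher in 10 of 15 and lower in 0, with a median of 0.76. Kcna1, a voltage-gated potassium channel, was at 43.9 and 52.3 CPM against 17.97 and 24.6 (1.20 ± 0.14). The sodium channel genes Scn1a, Scn2a, Scn3a and Scn3b were higher, Scn2a with 29.6 and 30.2 CPM against 15.8 and 15.3 (0.96 ± 0.18). Slc12a2 (NKCC1), which brings chloride into young neurons, was higher, with 74.5 and 81.2 CPM against 67.3 and 62.4. Slc12a5 (KCC2), which exports chloride in mature neurons, had 0 and 2 UMIs in members and was too low to be tested.

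Synaptic genes were higher in 13 of 24 and lower in 3, with a median of 0.38. Syt1, the calcium sensor of transmitter release, was at 55.0 and 49.8 CPM against 17.7 and 19.6, a difference of 1.51 ± 0.14. Shank1, a scaffold of excitatory synapses, was at 54.0 and 62.3 CPM against 28.5 and 30.2 (1.00 ± 0.12). The 3 lower genes were Syn2, with 91.9 and 69.4 CPM against 167 and 142 (-0.92 ± 0.08), Cplx2, with 374 and 333 against 530 and 463 (-0.47 ± 0.05), and Slc17a6, the vesicular glutamate transporter VGLUT2. Calcium-binding genes other than Calb2 were higher in 5 of 12 and lower in 3. Pcp4, which binds calmodulin, was at 467 and 500 CPM against 988 and 915, a difference of -0.96 ± 0.04. Of the 14 markers of mature granule neurons, 9 were too low to be tested, and a count over the 5 that passed this filter would not stand for the list. Among those 5, Atp2b1, a calcium pump, was at 334 and 340 CPM against 228 and 205 (0.66 ± 0.05). C1ql3 had 2.09 and 28.6 CPM in members, so its difference rests on library 2, where 9 members carried at least 2 UMIs of mature granule markers against 1 in library 1.

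RNA-binding proteins were higher in 9 of 19 and lower in 5, with a median of -0.06. Rbfox1, a splicing factor of maturing neurons, was at 82.5 and 97.6 CPM against 34.99 and 33.9, a difference of 1.39 ± 0.11, and Celf4 at 345 and 382 CPM against 162 and 204 (1.01 ± 0.05). Elavl4 (HuD) was at 201 and 136 CPM against 558 and 501, a difference of -1.65 ± 0.05. Apoptosis and survival genes were higher in 7 of 17 and lower in 3. Bcl2, which blocks apoptosis, was at 23.7 and 37.6 CPM against 10.7 and 17.7 (1.13 ± 0.18), while Bax, which drives it, was at 175 and 169 CPM against 229 and 215 (-0.35 ± 0.06). Bbc3 (Puma), another driver, was higher by 0.67 ± 0.11.

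DESeq2 called fewer genes in each of these lists. Over all 10738 genes to which it gave an adjusted p, 2.21% were higher and 1.64% lower. How many genes of each list were among the 10738 was not counted. It called 7 higher and 0 lower receptor subunits, 2 and 0 channels, 4 and 2 synaptic genes, 6 and 0 adhesion genes, 7 and 3 guidance genes, and 10 and 0 of the cytoskeleton. Of stem and early progenitor genes it called 0 higher and 8 lower, of G1 cyclins and CDK inhibitors 0 and 3, and of granule lineage factors 4 and 6. It called 3 and 3 RNA-binding genes, 2 and 1 calcium-binding genes, and 1 and 0 survival genes.

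**Figure D2:**
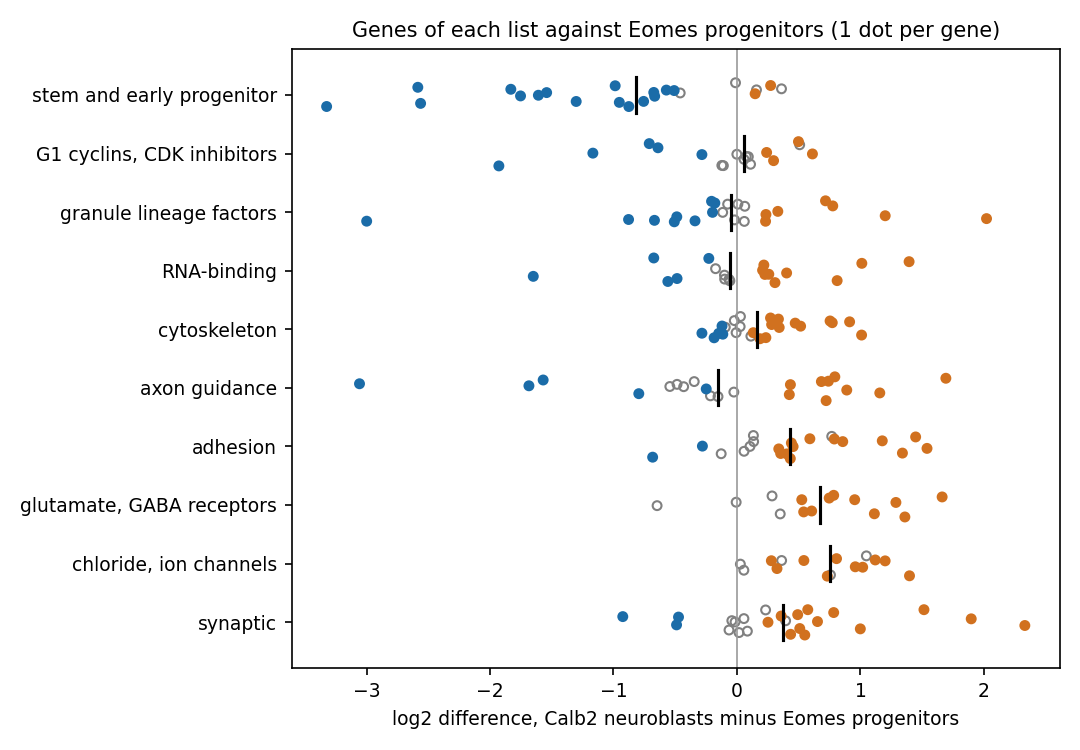
Log2 difference of each tested gene between Calb2 neuroblasts and Eomes progenitors (horizontal axis), by list (vertical axis, positions within a list are spread at random). Filled dots passed the edgeR test at an adjusted p of 0.05 (orange higher, blue lower), open dots did not, and black ticks are list medians, from -0.82 for stem and early progenitor genes to 0.76 for chloride and ion channels.

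Early response genes, which cell dissociation can induce, were higher in 11 of 19 and lower in 1 (Klf6). Egr1 was at 1084 and 919 CPM in members against 664 and 559 (0.73 ± 0.04), and its part in the other differences was not tested. Of the lists of other cell types, microglial genes had 0 of 8 past the test, endothelial genes 1 higher of 5 (Bsg), and astrocyte genes 2 lower of 8 (Slc1a3 and Apoe). Cajal-Retzius genes had 1 higher (Nhlh2) and 1 lower (Zic1) among the 2 of 8 that could be tested, and mossy and pyramidal genes 2 lower among 2 of 8 (Mpped1 and Slc17a6). Oligodendrocyte genes were higher in 5 of 8, but this direction turned without the cells that Scrublet marked, where Cnp, a myelin enzyme gene, was at -0.79 on the log2 scale in place of 0.42. Choroid plexus and red cell genes had 2 higher and 4 lower of 6. The 4 were haemoglobin genes, for which Eomes progenitors held 1274 to 5825 CPM in library 1, and their differences were above 0 once cells with markers of other cells were left out. With those cells left out, 1169 (10.6%) of 11001 genes were higher and 1042 (9.47%) lower, of which 1104 and 972 were also called with all cells. Of the KDM7 family, Phf2 was lower, with 14.6 and 5.14 CPM against 20.4 and 12.7 (-0.74 ± 0.23, edgeR adjusted p = 0.00843, DESeq2 adjusted p = 0.727), and Phf8 and Kdm7a did not pass.

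The step after the members was described with cells of a granule neuron gate. These lay outside the neurogenic gate, with at least 1 UMI of Prox1, at least 6 over Rbfox3, Snap25 and Syt1, at most 1 over Gad1 and Gad2, and under 2 of Calb2. They numbered 16 in library 1 (338116 UMIs) and 32 in library 2 (557137 UMIs). Library 1 was below the 20 cells per library set for a test, so levels are given with no test. They held Calb1 at 651 and 617 CPM and Nrgn at 4978 and 5519 CPM. Library 1 also held 577 CPM of the oligodendrocyte gene Cnp, against 8.97 CPM in library 2.

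The 11 genes named above for the largest rises from progenitors to members went apart at this point. In 8 of them the granule gate was above the members in each library, and in 3 it was below. Camk2b was at 1062 and 896 CPM in the granule gate, Ntrk3 at 183 and 228, Elmod1 at 355 and 411 and Sema5a at 251 and 269. Gal had 0 UMIs in library 1 (limit 8.87 CPM) and 1 in library 2 (1.79 CPM), and Col12a1 had 0 in both, with limits of 8.87 and 5.38 CPM. Kitl was at 17.7 and 16.1 CPM. Galanin, collagen XII and Kit ligand transcripts were therefore higher in Calb2 neuroblasts than in Eomes progenitors and the granule gate in these libraries. Low-Calb2 neuroblasts, compared below, are not part of this order. Without cells carrying markers of other cells, Gal in library 1 was at 23.4 CPM in members and 24.9 in low-Calb2 neuroblasts. The granule gate is set by low neurogenic and high neuronal counts, so genes that vary with those counts are not independent of it. Other listed genes were also highest in members among these classes. Sema3c was at 509 and 514 CPM in members and at 0 and 1.79 in the granule gate, Plxna2 at 328 and 353 against 38.4 and 48.5, and Stmn2 at 1275 and 1271 against 88.7 and 53.9.

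A smaller set had its lowest level in the members. Of the 12 genes with the largest fall from progenitors, 3 (Robo2, Rbm24 and Trp53i11) were higher in the granule gate than in members in both libraries. Vim was below the members there, with 1 UMI in each library. Another 5 had 0 UMIs in the granule gate, but its limits of 8.87 and 5.38 CPM are too high to order them against the members. Robo2 was at 36.7 and 42.3 CPM in progenitors, 4.53 and 4.82 in members, and 76.9 and 104 in the granule gate. Rbm24, an RNA-binding protein, went from 29.9 and 33.4 to 4.87 and 2.89 and then to 85.8 and 86.1 CPM. Pcp4 fell from 988 and 915 CPM to 467 and 500 in members and stood at 2774 and 2818 in the granule gate. Syn2 and Cplx2 had the same shape, Syn2 with 343 and 355 CPM in the granule gate and Cplx2 with 1266 and 1179.

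**Figure D3:**
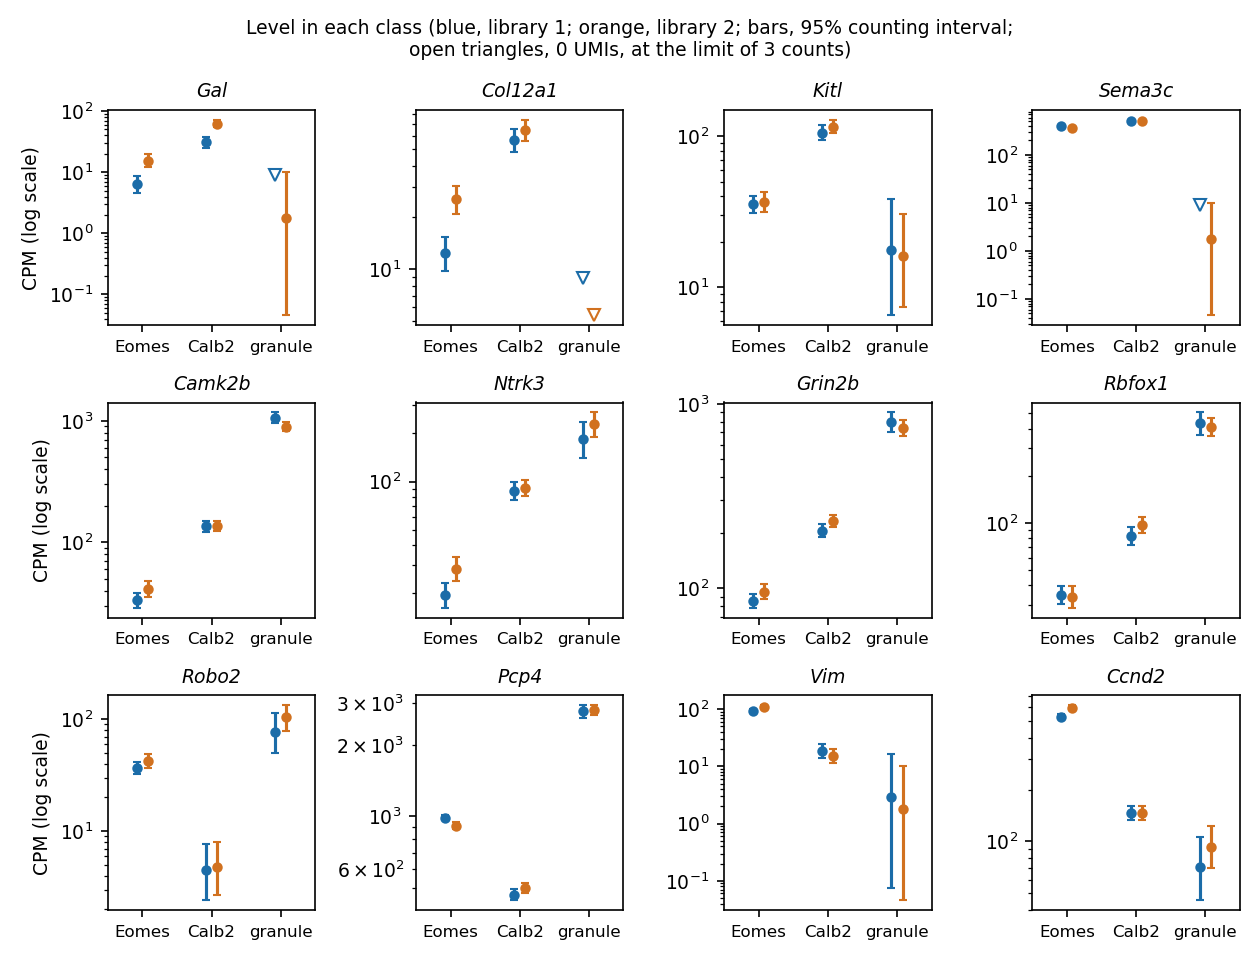
Level of 12 genes (vertical axes, CPM on a log scale) in Eomes progenitors, Calb2 neuroblasts and the granule neuron gate, with library 1 in blue and library 2 in orange. Bars are 95% Poisson intervals for counting error, and open triangles mark 0 UMIs at the limit of 3 counts. Among the classes shown, Gal, Col12a1, Kitl and Sema3c are highest in the Calb2 class, and Robo2 and Pcp4 are lowest there. Camk2b, Ntrk3, Grin2b and Rbfox1 rise at each step, and Vim and Ccnd2 fall. Low-Calb2 neuroblasts are not shown, and the granule gate is itself set by neurogenic and neuronal counts.

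Members were also compared with low-Calb2 neuroblasts, which pass the same limits with 0 or 1 Calb2 UMI. That class held 160 cells in library 1 (1347847 UMIs) and 217 in library 2 (2113529 UMIs), and its makeup has to be read before its genes. At least 2 UMIs of Calb1, C1ql2, C1ql3 and Icam5, genes of mature granule neurons, were found in 23 (14.4%) and 66 (30.4%) of its cells, against 1 and 9 members. At least 2 UMIs of the GABAergic list were found in 19 and 49 of its cells, against 4 and 4 members. It held 1688 and 13090 CPM of the choroid plexus gene Ttr, against 4.53 and 476 CPM in members. The share of cells under 5000 UMIs was 43.8% and 44.7%, against 14.7% and 26.1% of members. Cells with markers of other cells, or marked cells, were defined after the data were seen. They held at least 2 UMIs of those 4 mature granule genes or of the GABAergic list, at least 20 of Ttr, of 4 oligodendrocyte or of 4 astrocyte genes, or at least 50 of the haemoglobin genes. Once they were left out, 116 and 112 cells remained, with a median of only 3281.5 and 2883.5 UMIs.

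With all cells, edgeR called 1601 (14.1%) of 11370 genes higher in members and 2263 (19.9%) lower. DESeq2 called 449 (3.95%) and 1113 (9.79%). Leaving out the marked cells left 107 (1.08%) of 9890 tested genes higher and 185 (1.87%) lower. Of these, 61 and 90 were among the calls made with all cells. Another 14 of the genes higher with all cells were called lower, and 16 of the lower genes were called higher. Values are given for both choices below. This comparison and the one with Eomes progenitors share the member sums, so their results are not independent of each other.

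With all cells, calcium-binding genes were lower in members in 13 of 15 tested, receptor subunits in 13 of 19, synaptic genes in 19 of 25 and channels in 11 of 16, where 0, 0, 3 and 1 were higher. Mature granule markers summed to 786 and 886 CPM in members and to 4567 and 6046 in low-Calb2 neuroblasts. GABAergic genes summed to 7.31 and 11.6 CPM against 247 and 315. Many genes of these 2 lists passed the filter on low counts through the low-Calb2 class, so no count of them is read. Calb1 was at 0 and 5.78 CPM in members and at 340 and 388 CPM in low-Calb2 neuroblasts. Dlx6os1, a transcript of GABAergic progenitors, was at 0 UMIs in members and 39.3 and 44.0 CPM in the other class, and A2ml1 and Trpc6 were at 0 UMIs in members too. Slc12a5 (KCC2) was at 0 and 0.642 CPM against 68.3 and 92.7. Grp, Mal2, Gda, Rspo3, Syt13, Tafa1 and Brinp1 also had at most 5 UMIs in the members of either library and at least 24.5 CPM in low-Calb2 neuroblasts. Once the marked cells were left out, 0 of 12 receptor subunits, 0 of 13 channels and 0 of 24 synaptic genes were lower, and 1 of each list was higher. Of 10 calcium-binding genes, 3 were still lower and 1 was higher. Over all genes, 1.87% were lower and 1.08% higher. Marked cells were chosen partly by genes of mature and GABAergic neurons, so a loss of neuronal calls follows in part from that choice. In cells of 5000 to 20000 UMIs, marked cells included, 10 receptor subunits, 6 channels and 11 synaptic genes were lower, and 0, 1 and 2 higher. Over all genes, 1241 were lower and 543 higher there, so that 30.4% of the calls were higher. Of the 2263 genes lower with all cells, 2006 were tested in this setting. The genes tested thus differ, and nothing is read from these list counts. Mature granule and GABAergic genes define the marked cells, so they are not counted without them. Of 49 synaptic, receptor and channel genes tested in both fits, 38 had a log2 difference below 0 with all cells and 10 without the marked cells, and their median went from -0.98 to 0.26.

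Camk2b shows the turn. With all cells it was at 136 and 137 CPM in members and 427 and 524 in low-Calb2 neuroblasts, a difference of -1.80 ± 0.13. Among cells with no such marker it was at 139 and 125 CPM in members and 73.1 and 80.5 in low-Calb2 neuroblasts, a difference of 0.74 ± 0.19 with an edgeR adjusted p of 0.00511.

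Genes called higher in members with all cells and again without the marked cells included several of those that led the list. Col12a1 was at 58.8 and 66.1 CPM in unmarked members against 31.6 and 25.4 in unmarked low-Calb2 neuroblasts (1.05 ± 0.28), after 2.60 ± 0.27 with all cells. Cnr1, the cannabinoid receptor gene, was at 276 and 232 CPM against 143 and 140 (0.80 ± 0.14), and Socs2, a suppressor of cytokine signalling, at 138 and 154 against 93.0 and 72.0 (0.74 ± 0.18). Sema3c, Stmn2 and Satb1 kept their side with differences of 0.40 ± 0.11, 0.44 ± 0.08 and 0.57 ± 0.16. Sema5a was at 213 and 248 CPM against 103 and 69.9 (1.32 ± 0.16), and Kitl at 110 and 118 against 56.5 and 29.7 (1.31 ± 0.22). The leading genes Syt2, Vash2, Dok7, Tbc1d4 and Adamts18 were higher by 1.88 to 2.49 on the log2 scale with all cells and did not pass without the marked cells. Gal, with 23.4 and 64.6 CPM against 24.9 and 10.6, overlapped between the classes and missed the threshold (1.06 ± 0.34, edgeR adjusted p = 0.0531).

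The remaining lists had these counts with all cells. Granule lineage factors were higher in 17 and lower in 2 of 22, the cytoskeleton list in 19 and 5 of 26, RNA-binding proteins in 11 and 2 of 19, G1 cyclins and CDK inhibitors in 8 and 3 of 17, and survival genes in 7 and 2 of 17. Axon guidance genes were higher in 8 and lower in 6 of 24, adhesion genes in 9 and 12 of 23, and stem and early progenitor genes in 8 and 11 of 22. Without the marked cells, where 1.08% of all tested genes were higher and 1.87% lower, these became 3 and 3 of 22 for granule lineage factors, 6 and 4 of 24 for the cytoskeleton, 3 and 2 of 19 for RNA-binding proteins, 0 and 3 of 16 for G1 cyclins and 0 and 0 of 17 for survival genes. They became 3 and 0 of 19 for guidance, 3 and 0 of 18 for adhesion, and 1 and 5 of 19 for stem and early progenitor genes. Early response genes went from 7 higher and 1 lower of 18 to 3 and 0 of 18. Counts this small name few genes, and nothing is read from them about a list.

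Genes lower in members without the marked cells included some of division and of stem cells, named here after their values were seen. Pclaf, a partner of the replication clamp, was at 1.15 and 1.13 CPM in unmarked members against 28.2 and 76.3 in unmarked low-Calb2 neuroblasts, and the linker histone Hist1h1b at 0.768 and 3.38 CPM against 51.5 and 53.0. The rule limits mitotic and S-phase genes by raw UMIs, which shallow cells pass more easily. Unmarked low-Calb2 neuroblasts had a median of 3281.5 and 2883.5 UMIs, against 8881.5 and 7446.5 in unmarked members. These 2 differences are therefore not independent of the rule and of depth. Vim was at 14.98 and 15.8 CPM against 46.5 and 250 (-3.16 ± 0.24), and Zic5, a zinc-finger factor of early neural cells, at 7.30 and 6.76 CPM against 49.8 and 29.7 (-2.54 ± 0.38). Phf2 was at 13.1 and 5.26 CPM against 28.2 and 29.7, where the low-Calb2 values rest on 17 and 14 UMIs. With all cells Phf2 did not pass (edgeR adjusted p = 0.127).

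Among other cell types, astrocyte genes were lower in 5 of 8 with all cells and choroid plexus and red cell genes in 4 of 7, while microglial and oligodendrocyte genes had 0 of 8 past the test. Cajal-Retzius genes were higher in 2 of 2 tested (Nhlh2 and Zic1), mossy and pyramidal genes had 1 higher (Slc17a6) and 1 lower (Ajap1) of 2, endothelial genes 1 lower of 5, and the KDM7 family 0 of 3.

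**Figure D4:**
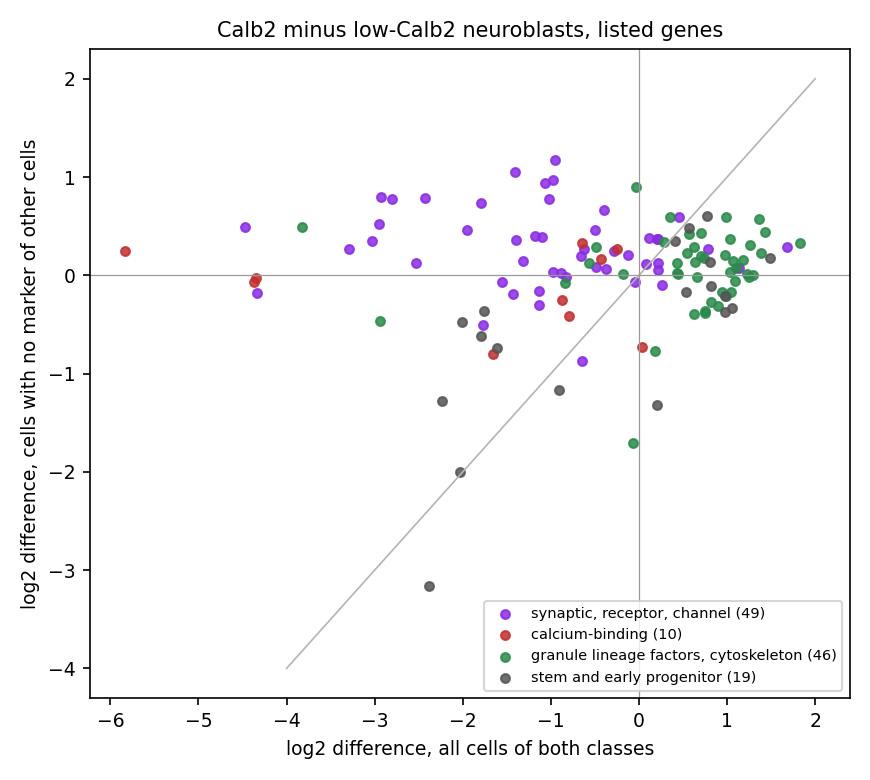
Log2 difference between Calb2 and low-Calb2 neuroblasts for listed genes tested in both fits, with all cells (horizontal axis) and without cells that carry markers of other cells (vertical axis); the grey diagonal marks equal values. Synaptic, receptor and channel genes (49, purple) have a median of -0.98 on the horizontal and 0.26 on the vertical axis, and stem and early progenitor genes (19, grey) one of 0.41 and -0.37. The plot leaves out genes too low to be tested without the marked cells. Over all 22 stem and early progenitor genes tested with all cells, the median is -0.35, so 0.41 holds only for the genes plotted.

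Calb2 varied widely among members. Members of each library were split into 3 equal parts by Calb2 per 10000 UMIs, with medians of 4.67, 9.73 and 17.2 in library 1 and 5.38, 12.1 and 22.4 in library 2. Of 3487 genes at 50 CPM or more, 19 were at least 2-fold lower in the part highest in Calb2 than in the lowest in both libraries. The 1 gene at least 2-fold higher was Calb2 itself, which the split fixes. These are descriptions, since a rank by Calb2 also moves with the makeup of a cell's RNA. Myelin and blood genes were among the 19. Cldn11, a tight-junction gene of myelin, was at 109.6 and 216 CPM in the lowest part, 7.61 and 5.81 in the middle part and 3.43 and 12.4 in the highest. Oligodendrocyte genes as a list summed to 2085 and 3515 CPM in the lowest part and to 136 and 222 CPM in the highest. These values rest on few cells, the 1 and 4 members with at least 20 UMIs over 4 oligodendrocyte genes, all of them in the lowest part. Without them, a choice made after the data were seen, the lowest part held 137 and 165 CPM of the list, and 1 gene (Fabp7) in place of 19 was at least 2-fold lower in both libraries. Without all marked members, 0 of 3464 genes were.

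The neuronal genes given here stayed within 2-fold across the 3 parts. Stmn2 was at 1194 and 1201 CPM in the lowest, 1209 and 1253 in the middle and 1443 and 1388 in the highest part. Col12a1 was at 45.5 and 46.1, 62.0 and 72.6, and 64.0 and 80.1 CPM. Prox1 was at 968 and 985, 1157 and 1029, and 1142 and 1107 CPM, and Neurod2 at 271 and 242, 288 and 282, and 250.2 and 246 CPM. Gal showed no shared order, with 31.6 and 72.0 CPM in the lowest and 29.7 and 42.9 in the highest part. The sum of stem and early progenitor genes was 1754 and 1694 CPM in the lowest, 1585 and 1538 in the middle and 1460 and 1411 in the highest part. Poisson intervals of the outer parts did not overlap within a library, but they leave out the spread between cells and are no test of a trend. The lowest part held 9 and 20 marked members and the highest 7 and 5, and this sum was not taken without them. The synaptic sum was 2597 and 2625 CPM in the lowest and 2640 and 2512 in the highest part.

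Between the 2 libraries, members differed in few genes. Of 3634 genes at 50 CPM or more in at least one library, 19 (0.523%) differed by at least 2-fold, and with 1 library each there is no test. The largest gap was that of Ttr, with 4.53 CPM in library 1 and 476 in library 2, where free RNA held 2041 and 20000 CPM. Hbb-bt was at 141 and 18.95 CPM, with 4539 and 2340 CPM in free RNA. Of neuronal genes, Nrgn was at 17.1 and 62.9 CPM and Gal at 30.6 and 62.6 CPM, the latter with 2.78 and 4.74 CPM in free RNA. Without members carrying markers of other cells, Nrgn was at 16.5 and 25.9 CPM and Gal at 23.4 and 64.6 CPM. Much of the gap in Nrgn thus lay in marked members of library 2.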

How the data were processed

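Dentate gyrus cells of 2 pools of 4 mice were profiled as 2 droplet libraries. The authors deposited 1 matrix of raw UMI counts per gene and barcode, with 6794880 barcodes per library, per the file headers. The submitters' processing notes name Cell Ranger 4.0.0, Scanpy 1.7.0 and mm10, with no role given. Libraries held 102897659 and 107266420 UMIs, of which 8255 and 8381 barcodes passed the limits on cells. Genotypes were not compared, because no label maps a barcode suffix to one.

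Cells were classed by raw counts, and counts were summed per class and library. Sums were tested with edgeR 4.0.16 (R 4.3.3, filterByExpr, TMM, quasi-likelihood, library as block, Benjamini-Hochberg over all genes), with DESeq2 1.42.0 as an alternative. Doublets were scored with Scrublet (Scanpy 1.11.5, expected rate 0.06) and kept. Genes of the 23 lists were described by counts and medians. Named genes were, per comparison, up to 12 higher and 12 lower by size of difference, at 20 CPM or more in the higher class of both libraries with the same sign in both, up to 6 called genes per list by adjusted p, and Phf2. Mitochondrial, ribosomal, haemoglobin, sex-linked marker and unnamed genes were left out of the former, and some genes are not reported here. Other genes stand only where a list or a pattern called for them and were then chosen after their values were seen. Members, lists and classes were chosen with earlier results of these data known. Cell classes are defined by a few counts in the same cells that are compared, so genes that vary with those counts are not independent of the choice. In simulated counts, 83% of 2-fold changes were recovered in the comparison with low-Calb2 neuroblasts (11428 genes) and 86% in that with Eomes progenitors (11556 genes), and 100% of 4-fold changes in each. Both simulations used 1 fixed spread and changed only well-counted genes. That spread was below the coefficient of variation edgeR estimated for the low-Calb2 comparison (0.108) and above that for Eomes progenitors (0.042). The 83% is therefore not the recovery at the spread of the real counts. Gene positions are from GENCODE M21 and upstream sequences from RefSeq (GRCm38.p6), where 25 of 35 genes looked up had an entry.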

Additional observations from a re-analysis of the deposited data

How the results depend on the processing

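Between genotypes, no paired analysis was possible because the groups share a single replicate number and the barcode suffixes carry no genotype. The class comparisons were paired within libraries. Without the library as a replicate block, the comparison with Eomes progenitors gave 717 higher and 612 lower genes in place of 1419 and 1340, and that with low-Calb2 neuroblasts 1341 and 2065 in place of 1601 and 2263. DESeq2 gave 237 and 176 against Eomes progenitors and 449 and 1113 against low-Calb2 neuroblasts. Against low-Calb2 neuroblasts, leaving out GABAergic-marked cells gave 522 and 1266, cells of 5000 to 20000 UMIs gave 543 and 1241, and leaving out cells with markers of other cells, added after the data were seen, gave 107 and 185. These 3 settings also hold fewer cells, and the cause was not tested further. The share of higher genes among all calls against low-Calb2 neuroblasts was 41.4%, and 28.8% by DESeq2. The planned comparison with the granule neuron gate was not run, since library 1 held 16 cells there.

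The share of gated cells that were members, 24.7% and 30.1%, was 28.1% and 33.3% with a Calb2 minimum of 1, 19.5% and 23.9% with a minimum of 4, 17.5% and 22.2% after thinning to 3000 UMIs, and 27.8% and 35.1% without GABAergic-marked cells. It moved within its interval with a mitochondrial limit of 10% and without doublets.

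Of 113 named genes in the comparison with Eomes progenitors, 83 kept their side of the threshold by DESeq2 and 100 without the block. Directions that turned were those of other cells' genes. Without doublets, Cldn11 was at -1.13, Cnp at -0.79, Mbp at -0.35, Olig1 at -1.14 and Enpp2 at -0.093 on the log2 scale. In cells of 5000 to 20000 UMIs, Cnp was at -0.27 and Olig1 at -0.49. Without cells carrying other cells' markers, Apoe was at 0.093, Cnp at -0.12, Hba-a1 at 0.26, Hba-a2 at 0.49, Hbb-bs at 0.32 and Hbb-bt at 0.17. With 1 library left out in turn, Cnp lay between -0.29 and 1.04, Mbp between -0.21 and 1.00 and Ttr between -0.10 and 0.57.

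Of 119 named genes in the comparison with low-Calb2 neuroblasts, 79 could be tested without cells carrying other cells' markers. Of these, 16 kept their side, 39 lost their call with the same direction, 1 gained a call and 23 turned. The turned values were 0.50 for Bcl11b, -0.073 for Cdk4, -0.082 for Cdkn1b, -0.21 for Cdk6, 0.65 for Epha7, 0.32 for Opcml, 0.39 for Nrcam, 0.24 for Nrgn, 0.27 for Gabrb1, 0.46 for Gria1, 0.79 for Scn2a and 0.36 for Scn3b. They were 0.49 for Slc17a7, 0.80 for Syt1, 0.13 for Snap25, 0.74 for Camk2b, 0.085 for Ppp3ca, 0.37 for Tiam1, 0.63 for Rbfox1, -0.37 for Elavl2, -0.002 for Srrm4, -0.39 for Zic1 and 0.0101 for Enpp2. With 1 library left out in turn, Hbb-bt lay between -2.56 and 0.59. Levels near the limit of 3 counts, about 1 CPM in members and 5.38 to 8.87 CPM in the granule gate, cannot be ordered at this depth.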
